A study of Mus musculus with 5 samples.

Results

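Lysyl oxidases and the enzymes that trim procollagen were followed in SLAMseq libraries of mouse cardiac fibroblasts (CF) through 7 genes, the 5 lysyl oxidases *Lox*, *Loxl1*, *Loxl2*, *Loxl3* and *Loxl4*, the procollagen C-proteinase *Bmp1* and its enhancer *Pcolce*. The genes were found by their names in the deposited tables, which hold 20365 gene names on 40428 distinct 3′ UTR intervals. The 7 genes have 8 of these intervals, and each gene was represented by 1 interval, the one whose deposited CPM was highest on average with S4U. *Bmp1* is the one gene of the 7 with 2 intervals, which differ by 3 bases at one end and hold the same reads.

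CF came from hearts of adult, healthy, male wildtype C57Bl/6J mice, were isolated by collagenase perfusion, and were grown to confluency before the experiment. In 3 libraries the cells had been given 0.1 mM 4-thiouridine (S4U) for 12 h, and in 2 libraries they were kept in parallel for the same time without S4U. All 5 RNA samples were listed as alkylated, a step that makes S4U read as C in place of T. All cells were wildtype and unstressed, so the design holds no infarct or other disease group, and the comparison with and without S4U asks which transcripts were made during the 12 h and whether the analog itself moved read counts.

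Fibrillar collagens are secreted as procollagens with a propeptide at each end. BMP1 cuts off the C-propeptide, the step that allows the trimmed molecules to assemble into fibrils, and PCOLCE binds procollagen and speeds this cut. Lysyl oxidases are copper-dependent enzymes that oxidize lysine side chains of collagen and elastin, which then react to form the cross-links that give the matrix its strength. LOX itself is secreted as an inactive precursor that is activated by BMP1 and related proteinases. In the heart, cross-linked collagen is known for stiffening scars and fibrotic tissue, and fibroblasts are a main source of these enzymes.

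Reads on 1 interval per gene numbered between 506045 (labeled replicate 3) and 1843033 (unlabeled replicate 1). The T>C conversion rate, the share of covered T positions that read as C, was 0.0353, 0.0358 and 0.0356 over all intervals of the labeled libraries, and 0.00111 and 0.000652 over those of the unlabeled ones. The deposited CPM divides a read count by a number that was 7.58 to 28.9 times the reads on 1 interval per gene, so levels are given below as CPM relative to counted reads unless said otherwise. The CF label was set against marker genes. The 7 fibroblast markers summed to between 22944 and 32873 CPM relative to counted reads and none was at 0 in any library, whereas 4 endothelial markers summed to at most 163, 4 macrophage markers to at most 46.0, 4 mural markers to at most 13.8, 3 Schwann markers to at most 6.98, 4 cardiomyocyte markers to at most 6.02 with *Actn2* and *Ryr2* at 0 throughout, and 3 mesothelial markers to at most 0.837. The libraries numbered 1 stood apart from the other libraries of both groups. The chi-square per degree of freedom of read counts was 18.2 and 12.2 between labeled replicate 1 and the other labeled libraries, 2.20 between labeled replicates 2 and 3, and 17.7 between the unlabeled libraries. No label ties a library to an animal or says that a number marks a shared preparation, and p-values measure the spread between these 5 libraries.

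The measured stretches lie at the 3′ ends of these genes. On GRCm39, the interval of *Lox* (ENSMUSG00000024529.16) is chr18:52649132-52652298 on the minus strand, 3167 bases, of which 3163 are 3′ UTR in exon 7. That of *Loxl1* (ENSMUSG00000032334.12) is chr9:58195006-58196193, minus strand, also exon 7, and it overlaps coding sequence of an annotated transcript. That of *Loxl2* (ENSMUSG00000034205.18) is chr14:69930569-69933283, plus strand, exon 14. That of *Loxl3* (ENSMUSG00000000693.12) is chr6:83027855-83029547, plus strand, exon 14. That of *Loxl4* (ENSMUSG00000025185.16) is chr19:42580718-42583772, minus strand, exon 15. The interval of *Bmp1* (ENSMUSG00000022098.12) is chr14:70711995-70712554, minus strand, 560 bases with 130 T, and ends 306 bases before the annotated end of the gene. The interval of *Pcolce* (ENSMUSG00000029718.16) is chr5:137603369-137603424, minus strand, exon 9, and with 56 bases and 15 T it is the shortest of the 7 and shorter than a read. All annotated coding transcripts of *Lox*, *Loxl1*, *Loxl2* and *Loxl3* end in their interval or within 20 bases of it. The same holds for 5 of 7 of *Bmp1*, 8 of 11 of *Pcolce* and 4 of 5 of *Loxl4*, and reads at the ends of the other transcripts, such as *Bmp1-276* and *Bmp1-277* at position 70724048, were not counted there. Among the 4 of *Loxl4*, 1 ends at position 42583773, just upstream of the interval, so reads at its end lie outside it.

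3 of the genes share their 3′ region with an exon on the other strand, *Loxl2* with *R3hcc1* over 943 bases, *Loxl3* with *Htra2* over 1058 bases and *Loxl4* with *R3hcc1l* over 71 bases. The counts go by strand. Of 182 intervals that lie wholly within an interval on the opposite strand, 128 held more reads in labeled replicate 1 than the interval around them, against 0 of 6715 on the same strand.

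2 short motifs in these intervals are shown because sites of their kind are known to act on the level and stability of transcripts. The libraries give levels and T>C rates after 12 h, and stability itself was not measured. The first is the match to the seed of the miR-29 family, which is known for targeting collagen and elastin transcripts in CF. The mature sequences, from RefSeq on GRCm38.p6, share 1 seed (bases 2 to 8, in capitals).
mmu-miR-29a-3p: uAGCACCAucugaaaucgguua
mmu-miR-29b-3p: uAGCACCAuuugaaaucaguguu
mmu-miR-29c-3p: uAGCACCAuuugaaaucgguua

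The 7 letters TGGTGCT, searched on the transcript's strand, occur 3 times in the interval of *Lox*, 2 times in that of *Loxl2*, once in that of *Loxl4* and in none of *Loxl1*, *Loxl3*, *Bmp1* or *Pcolce*. Of 3460 intervals of 2000 to 4000 bases, the length class of *Lox*, *Loxl2* and *Loxl4*, 25.9% held at least 1 such match, 4.60% at least 2 and 0.809% at least 3. Among the substrates, *Eln*, *Col1a1*, *Col1a2* and *Col3a1* were searched. The letters occur 3 times in the interval of *Eln*, once each in those of *Col1a1* and *Col3a1*, and not in that of *Col1a2*. The sites of *Loxl2* (chr14:69932182-69932204 and chr14:69932544-69932566, plus strand) and of *Loxl4* (chr19:42583459-42583481, minus strand) are printed with the seed match in capitals. Both sites of *Loxl2* are followed by an A, whereas the 3 sites of *Lox*, which are not printed here, and that of *Loxl4* are not.
Loxl2 site 1: ccccagctcatggaaTGGTGCTa
Loxl2 site 2: agatagcattgtgaaTGGTGCTa
Loxl4 site: aaggccccctctaagTGGTGCTt

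The second motif is TGTANATA, the letters known to be bound by Pumilio proteins, searched on the transcript's strand. Of the 7 genes, *Loxl3* alone has it, 3 times, all in the last 300 bases of its interval. Of 15434 intervals with at least that length, 9.76% held 1 or more in their last 300 bases and 0.136%, or 21 intervals, held 3 or more. The copies of *Loxl3* lie at chr6:83029353-83029376, chr6:83029383-83029406 and chr6:83029421-83029444 on the plus strand, with the motif in capitals.
Loxl3 copy 1: tgtataggTGTATATAtatataca
Loxl3 copy 2: tagatataTGTATATAtcaccaca
Loxl3 copy 3: tatgtataTGTATATAtcaccaca

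A match of either kind is a description of letters, and neither miR-29 nor Pumilio binding was measured here. The AU-rich pentamer ATTTA, searched the same way, was found 10 times in the interval of *Lox*, 4 times in that of *Loxl4* and 3 times in that of *Loxl2*, and in none of the other 4. It was present in the last 300 bases of 44.2% of the 15434 intervals, and in those of *Lox*, *Loxl2* and *Loxl4*.

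*Lox*, which encodes the founding lysyl oxidase, was by far the most abundant of the 7. By mean deposited CPM in the labeled libraries, *Lox* ranked 11 of the 13797 genes with reads in those libraries. Its reads numbered 7401, 4680 and 2117 in the labeled libraries and 5824 and 2620 in the unlabeled ones. Values of a group are listed here from replicate 1 on. Relative to counted reads these levels were 4696, 3916 and 4183 CPM in the labeled libraries and 3160 and 2630 CPM in the unlabeled ones. All 3 labeled levels lay above both unlabeled levels on this scale. In a bulk library, fewer cells of a type and less RNA per cell cannot be told apart. On the deposited CPM scale the labeled levels of *Lox* were 620, 332 and 145 against 402 and 239 in the unlabeled libraries, and there the groups overlapped. The T>C rate of *Lox* was 0.0289, 0.0336 and 0.0316 with S4U, on 48659 to 163320 covered T positions, and 0.000229 and 0.000334 without.

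*Loxl1*, whose product is known for its part in elastic fibers, had 745, 791 and 318 reads in the labeled libraries and 803 and 567 in the unlabeled ones. Its levels were 473, 662 and 628 CPM relative to counted reads with S4U and 436 and 569 CPM without. The groups overlapped, and within both groups the library numbered 1 was the lowest. Conversion rates of *Loxl1* were 0.0324, 0.0356 and 0.0341 in the labeled and 0.000862 and 0.000382 in the unlabeled libraries.

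*Loxl2*, which is known for acting on type IV collagen of basement membranes, had 846, 608 and 284 reads with S4U and 726 and 477 without. The levels of *Loxl2* were 537, 509 and 561 CPM relative to counted reads in the labeled libraries, and 394 and 479 CPM in the unlabeled ones. All labeled levels were above the unlabeled ones, the nearest pair being 509 and 479 CPM. Its T>C rate was 0.0302, 0.0328 and 0.0238 with S4U and 0.00142 and 0.000588 without. Labeled replicate 3 had the lowest rate, and its exact 95% binomial interval of 0.0198 to 0.0284 did not reach the rates of the other labeled libraries. Such intervals cover counting error only.

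*Loxl3* and *Loxl4*, the remaining paralogs, were the least abundant lysyl oxidases. *Loxl3* had 170, 173 and 71 reads in the labeled libraries and 153 and 76 in the unlabeled ones, or 108, 145 and 140 CPM relative to counted reads against 83.0 and 76.3 CPM. As for *Lox* and *Loxl2*, every labeled level was above both unlabeled levels. With S4U, the T>C rate of *Loxl3* was 0.0344, 0.0327 and 0.0323. Without S4U it was 0.000365 in replicate 1, and in replicate 2 no conversion was seen in 1551 covered T positions, which allows a rate of up to 0.00193.

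*Loxl4* was barely read, with 44, 12 and 9 reads in the labeled libraries and 63 and 12 in the unlabeled ones. The levels of *Loxl4* relative to counted reads were 27.9, 10.0 and 17.8 CPM with S4U and 34.2 and 12.0 CPM without. The groups overlapped, and the libraries numbered 1 were the highest of each group. The T>C rate of *Loxl4* was 0.0541, 0.0355 and 0.0410 on 592, 169 and 122 covered T positions, with exact 95% intervals of 0.0373 to 0.0755, 0.0131 to 0.0757 and 0.0134 to 0.0931. The 3 intervals overlap each other, and the last 2 hold the rates of all the other lysyl oxidases in the same libraries. Without S4U the rate was 0.00119 in replicate 1 and 0 of 224 covered T positions in replicate 2, which allows up to 0.0134.

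Among the lysyl oxidases, *Lox* made up 80.4%, 74.7% and 75.6% of the reads in the labeled libraries and 76.9% and 69.8% in the unlabeled ones. *Loxl1* and *Loxl2* followed with 8.09% to 15.1% and 9.19% to 12.7% of these reads over the 5 libraries, *Loxl3* held 1.85% to 2.76%, and *Loxl4* never more than 0.832%. The libraries read a transcript once, at its 3′ end, so these shares were not divided by length.

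**Figure D1:**
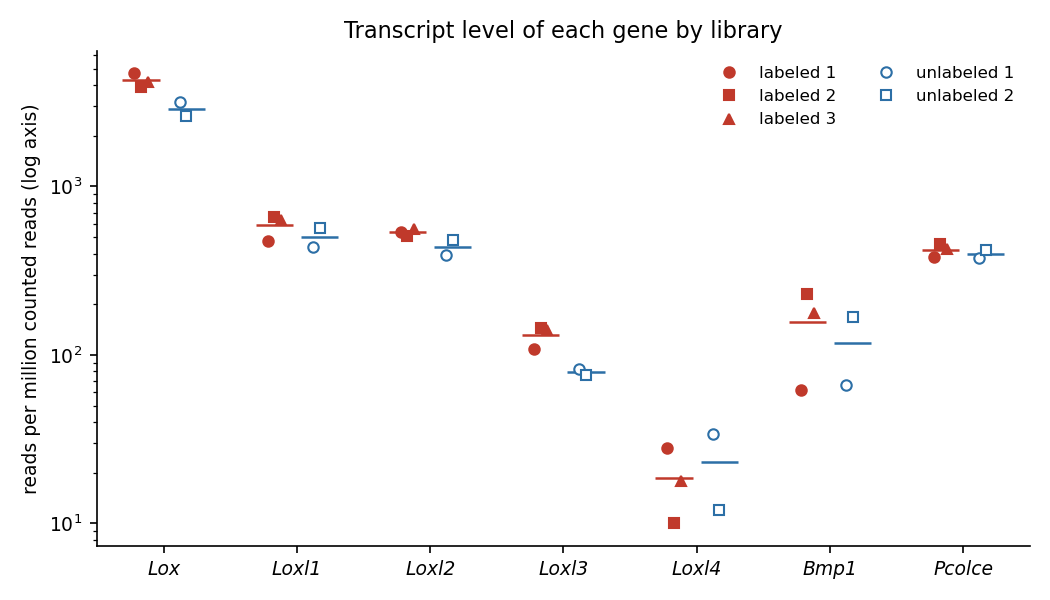
Level of each gene in each library, as CPM relative to counted reads on a log axis, with filled red symbols for labeled and open blue symbols for unlabeled libraries (replicate 1 circle, 2 square, 3 triangle) and a line at each group mean. *Lox* sits between 2630 and 4696 CPM, above all other genes, and *Bmp1* is low in both libraries numbered 1.

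*Pcolce* encodes the procollagen C-proteinase enhancer. It had 605, 542 and 215 reads in the labeled and 694 and 419 in the unlabeled libraries. Its levels were 384, 454 and 425 CPM relative to counted reads with S4U and 377 and 421 CPM without, and the groups overlapped. The T>C rate of *Pcolce* was 0.00801, 0.0116 and 0.0117 in the labeled libraries, and was below that of each lysyl oxidase in every one of them. In unlabeled replicate 1 no conversion was counted on 8230 covered T positions, which allows a rate of up to 0.000365, and the rate in unlabeled replicate 2 was 0.000488. For *Pcolce* the deposited columns differ, since they list 1 read with a conversion beside 0 conversions in unlabeled replicate 1 and 3 such reads beside 2 conversions in unlabeled replicate 2.

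*Bmp1* encodes the C-proteinase itself. It had 97, 275 and 90 reads in the labeled libraries and 122 and 168 in the unlabeled ones. Its levels were 61.5, 230 and 178 CPM relative to counted reads with S4U and 66.2 and 169 CPM without, so that the levels split by replicate number and not by S4U. The T>C rate of *Bmp1* was 0.0107, 0.0205 and 0.0312 in labeled replicates 1, 2 and 3, the widest spread of the 7 genes, with exact 95% intervals of 0.00431 to 0.0219, 0.0165 to 0.0252 and 0.0226 to 0.0419. The first and last of these intervals do not overlap. Without S4U, 0 of 912 covered T positions were converted in replicate 1, which allows up to 0.00329, and the rate was 0.000380 in replicate 2.

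The reads of *Bmp1* also covered fewer T positions in the libraries numbered 1. A *Bmp1* read covered 6.74, 15.8 and 15.0 T positions on average in the labeled libraries and 7.48 and 15.7 in the unlabeled ones. The libraries numbered 1 thus had 0.459 times the covered T per read of the other libraries, against a median of 0.899 over 2015 genes with at least 50 reads in every library, and 2 of these genes had a lower ratio. The level of *Bmp1* in the libraries numbered 1 was 0.332 times that of the others, lower than for all but 4.32% of the 2015 genes. For *Lox* and *Loxl3* the ratio of covered T per read was 0.947 and 0.983, for *Loxl1* and *Loxl2* it was 0.795 and 0.811, and for *Pcolce* 1.15. Low level, low T>C rate and few T positions per read went together for *Bmp1* in labeled replicate 1, and the part of the reads' position in its level and rate was not tested. Without labeled replicate 1, its mean labeled T>C rate was 0.0258 in place of 0.0208.

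**Figure D2:**
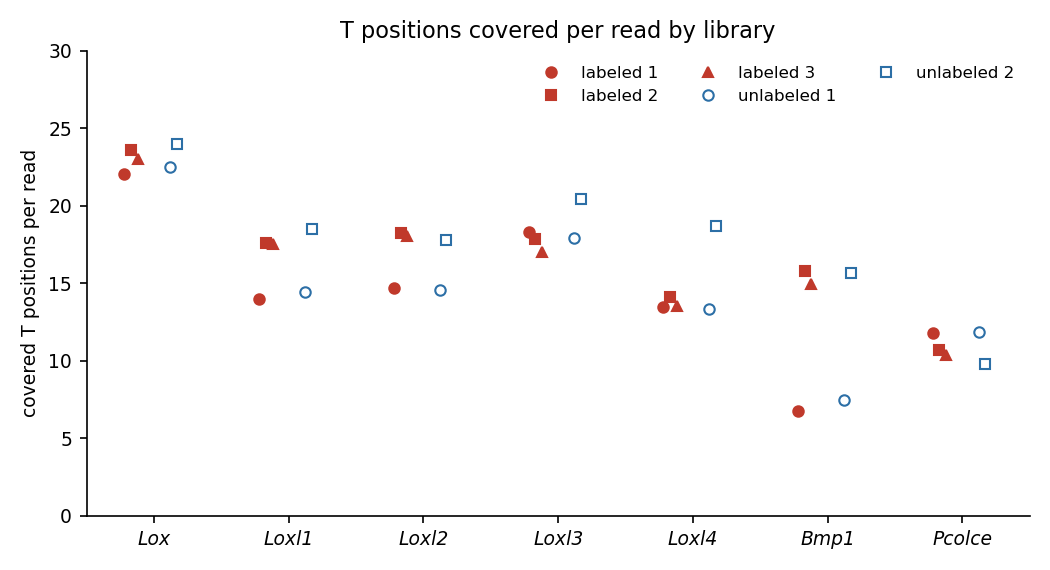
Covered T positions per read for each gene and library, filled red for labeled and open blue for unlabeled. *Bmp1* reads covered 6.74 and 7.48 T positions in the libraries numbered 1 and 15.0 to 15.8 in the other 3.

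In order of level, means over the labeled libraries relative to counted reads were 4265 ± 396 CPM for *Lox*, 588 ± 101 for *Loxl1*, 536 ± 26.2 for *Loxl2*, 421 ± 35.0 for *Pcolce*, 157 ± 86.3 for *Bmp1*, 131 ± 20.1 for *Loxl3* and 18.6 ± 8.96 for *Loxl4* (SD, n = 3). *Lox* was thus 7.26 times as high as *Loxl1* and 230 times as high as *Loxl4*. Of the 21 pairs of genes, 19 kept the same order in all 3 labeled libraries without overlap of their ranges, and the exceptions were the neighbours *Loxl1* and *Loxl2*, and *Bmp1* and *Loxl3*. The exact permutation test used here was two-sided and unpaired, so it ignores that both genes were read in the same libraries. In it, 3 values against 3 cannot give a p below 0.1, which those 19 pairs reached (0.111 after Benjamini-Hochberg adjustment over the 21 pairs). On the deposited CPM scale, whose divisor differed between libraries, 15 of the 21 pairs did not overlap.

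In order of T>C rate, labeled means were 0.0435 ± 0.00953 for *Loxl4*, 0.0340 ± 0.00161 for *Loxl1*, 0.0331 ± 0.00111 for *Loxl3*, 0.0314 ± 0.00233 for *Lox*, 0.0289 ± 0.00462 for *Loxl2*, 0.0208 ± 0.0102 for *Bmp1* and 0.0104 ± 0.00208 for *Pcolce* (SD, n = 3). The ranges of each neighbouring pair in this order overlapped. Compared within single libraries, 15 of the 21 pairs kept the same order in all 3, and of the neighbours only *Bmp1* and *Pcolce* did. *Loxl1*, *Loxl3*, *Lox* and *Loxl2* overlapped in all 6 of their pairs. *Pcolce* lay below all 5 lysyl oxidases without overlap, and the mean of *Lox* was 3.01 times and that of *Loxl1* 3.27 times its mean. Of the 21 pairs, 11 did not overlap, each with the smallest p of the unpaired two-sided exact permutation test, 0.1 (0.191 after adjustment over the pairs). By the share of reads with at least 1 conversion, *Loxl3* had 42.1% ± 0.962, *Lox* 41.7% ± 3.42, *Loxl1* 39.2% ± 5.59, *Loxl4* 37.9% ± 4.22, *Loxl2* 33.1% ± 4.42, *Bmp1* 17.1% ± 9.93 and *Pcolce* 10.5% ± 2.04 (SD, n = 3), a share that also depends on how many T positions a read covers.

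**Figure D3:**
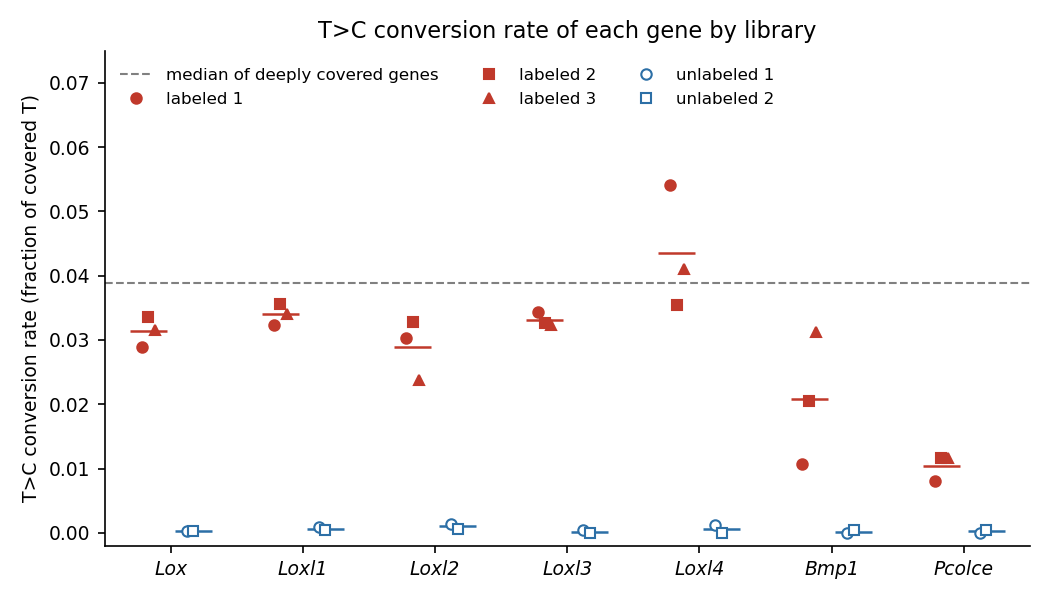
T>C conversion rate of each gene in each library, as the fraction of covered T positions, with filled red symbols for labeled and open blue symbols for unlabeled libraries, lines at group means and a dashed line at 0.0388, the median of 2107 deeply covered genes. All labeled values lie above all unlabeled ones, *Pcolce* is lowest at 0.00801 to 0.0117, and *Bmp1* spreads from 0.0107 to 0.0312.

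Against the rest of the transcriptome, 6 of the 7 genes had a mean labeled T>C rate below the median of 0.0388 over the 2107 genes whose covered T positions reached 1000 in each of the 5 libraries. By their means, the same 6 were also below the lower quartile of 0.0343. *Loxl1* stood at percentile 24.1 of these genes, *Loxl3* at 22.0, *Lox* at 18.9, *Loxl2* at 14.6 and *Pcolce* at 1.99. *Bmp1* would stand at 8.31 and *Loxl4*, the exception, at 82.7, but both had fewer than 1000 covered T positions in at least 1 library. In single labeled libraries *Loxl1* ranged from percentile 24.9 to 30.7 and *Loxl3* from 21.5 to 32.0, so that neither was below the lower quartile in every library, while *Lox* ranged from 16.8 to 23.8 and *Loxl2* from 10.9 to 21.6. *Loxl4* ranged from percentile 30.2 to 99.7 and *Bmp1* from 2.33 to 21.2, whereas *Pcolce*, whose rate rests on 15 T positions, stayed between 1.04 and 3.32.

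Every one of the 7 genes had a higher T>C rate with S4U than without. In the beta-binomial test of labeled against unlabeled libraries, p was 1.66e-07 for *Lox*, 1.41e-07 for *Loxl1*, 1.06e-05 for *Loxl2*, 1.31e-06 for *Loxl3*, 0.000136 for *Loxl4*, 0.00104 for *Bmp1* and 0.000111 for *Pcolce*. After subtraction of the mean unlabeled rate, the labeled rate was 0.0311 for *Lox*, 0.0334 for *Loxl1*, 0.0279 for *Loxl2*, 0.0329 for *Loxl3*, 0.0429 for *Loxl4*, 0.0206 for *Bmp1* and 0.0102 for *Pcolce*. Of the 19240 intervals tested, 18200 or 94.6% had a higher rate at an unadjusted p below 0.05, so the 7 of 7 is near what nearly all measured intervals showed.

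*Lox*, *Loxl1*, *Loxl3* and *Loxl4* had higher T>C rates than 6 substrate genes in each labeled library. The fibrillar collagen chains had mean labeled T>C rates of 0.0259 ± 0.00199 for *Col1a1* and 0.0151 ± 0.00143 for *Col3a1*, and elastin, *Eln*, had 0.0169 ± 0.00245 (SD, n = 3). That of *Col1a2* was 0.0195, 0.0208 and 0.0196 in labeled replicates 1, 2 and 3. The type V chains had means of 0.0268 ± 0.00176 for *Col5a1* and 0.0218 ± 0.00160 for *Col5a2* (SD, n = 3). The ranges of *Lox*, *Loxl1*, *Loxl3* and *Loxl4* overlapped none of these 6. *Lox* was 1.21 times *Col1a1* and 2.08 times *Col3a1*. *Loxl2* was above *Col1a2*, *Col3a1*, *Col5a2* and *Eln* in each library, and above *Col1a1* and *Col5a1* in 2 of 3, with labeled replicate 3 as the exception. *Pcolce* was below all 6 in each library, at 0.402 times *Col1a1* and 0.690 times *Col3a1*. *Bmp1* overlapped all 6. In these comparisons of 3 values with 3, too, the smallest p that an unpaired two-sided exact permutation test can give is 0.1.

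**Figure D4:**
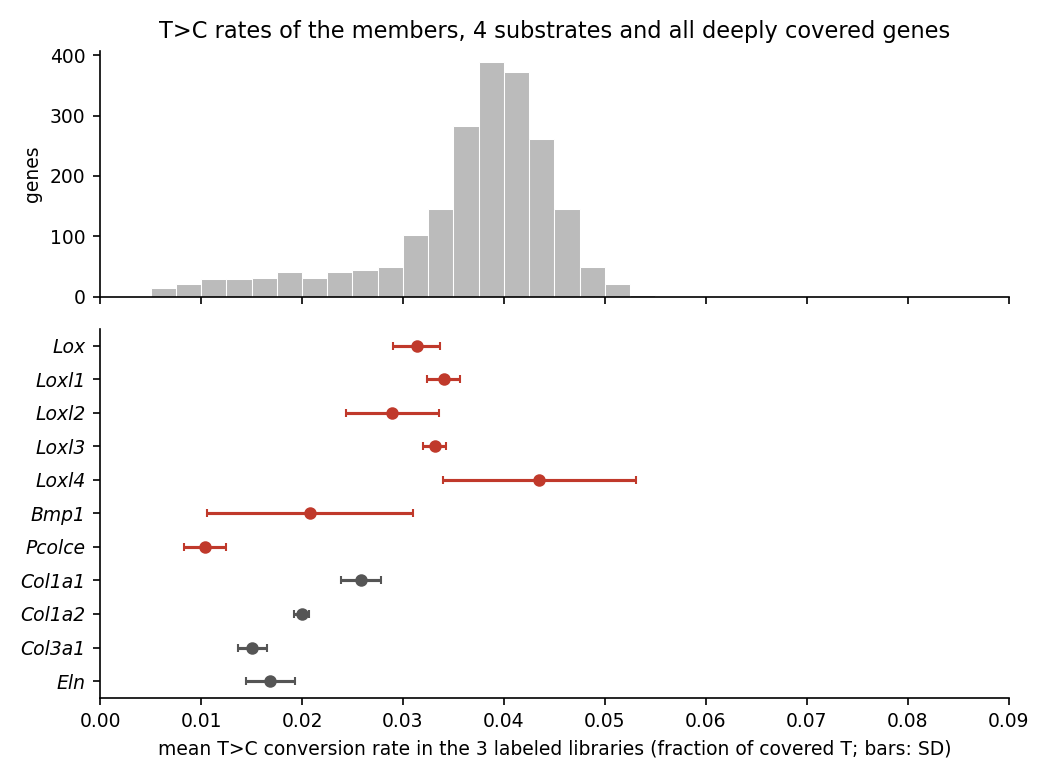
Top, number of genes by mean labeled T>C rate (fraction of covered T) for 2107 deeply covered genes. Bottom, mean and SD over 3 labeled libraries for the 7 genes in red and for 4 collagen and elastin genes in gray, which shows *Pcolce* at 0.0104, left of the collagens, and *Lox* at 0.0314, between the collagens and the bulk of genes.

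Other genes of collagen processing were read from a list of 30. *Pcolce2*, the paralog of *Pcolce*, had 319, 377 and 290 CPM relative to counted reads with S4U and 189 and 216 CPM without, and a labeled T>C rate of 0.0245 ± 0.00649, with no labeled library below 0.0183. *Tll1*, a tolloid-like proteinase that can also cut the C-propeptide, was at 5.71, 2.51 and 1.98 CPM with S4U and 1.63 and 0 CPM without, and the relatives *Tll2*, *Mep1a* and *Mep1b* had no read in any library, for which 3 counts allow up to 1.63 CPM in the deepest and 5.93 CPM in the shallowest library. *Adamts2*, the main procollagen N-proteinase, was at 1042, 893 and 757 CPM with S4U and 1183 and 976 CPM without, and was the least labeled but one of the deeply covered list genes at 0.0146 ± 0.00270. *Furin*, a proprotein convertase that processes the BMP1 precursor, had 439, 249 and 308 CPM with S4U, 341 and 210 CPM without, and a rate of 0.0351 ± 0.00198. Of the 19 list genes that were covered as deeply as those 2107, *Thbs1* (0.0540 ± 0.00220), the copper transporter *Atp7a* (0.0424 ± 0.00447) and the lysyl hydroxylase *Plod2* (0.0408 ± 0.00275) had the highest rates. *Col3a1*, *Adamts2* and *Fbln5*, a fibulin of elastic fibers with 0.0101 ± 0.00178, had the lowest (all SD, n = 3). The median rate of these 19 was 0.0216, against 0.0388 for the 2107 genes and 0.0314 for the 7 lysyl oxidase and C-processing genes.

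Fitted without a block for the replicate number, the comparison of read counts with and without S4U passed the threshold for none of the 7 genes. With edgeR's quasi-likelihood test and Benjamini-Hochberg adjustment over 9807 genes, 0% of genes were called. Before adjustment, p was below 0.05 for 279 genes that were higher (2.84%) and for 306 that were lower (3.12%). Two-sided unadjusted p was below 0.05 for 2 of the 7 genes. The log2 fold change of reads from edgeR was 0.79 for *Loxl3* (SE 0.27, adjusted p = 0.731) and 0.64 for *Lox* (SE 0.23, adjusted p = 0.767). DESeq2 called 12 of 1834 genes with an adjusted p, or 0.654%, and none of the 5 it gave one for among the 7, *Loxl3* and *Loxl4* having none.

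The log2 fold changes of reads of the other genes were 0.37 (SE 0.25) for *Loxl2*, 0.30 (SE 0.29) for *Loxl1*, 0.15 (SE 0.24) for *Pcolce*, 0.48 (SE 0.63) for *Bmp1* and -0.24 (SE 0.57) for *Loxl4*, with edgeR adjusted p from 0.988 to 1.00. 6 of the 7 values were above 0, with a median of 0.37 against 0.02 over all genes tested. With 1 library left out, the value ran from 0.19 to 0.56 for *Loxl2*, from 0.076 to 0.56 for *Loxl1* and from 0.029 to 0.28 for *Pcolce*. The sign of *Loxl4* and that of *Bmp1* rested on single libraries, since without unlabeled replicate 1 they were 0.66 and -0.082. *Lox*, *Loxl2* and *Loxl3* had all 3 labeled values above the 2 unlabeled values on CPM relative to counted reads, as were 8.2% of the 9807 genes, and none of the 7 was lower throughout, as were 13.1%. With TMM library sizes these shares were 10.4% and 11.1%, and the same 3 genes were apart. On the deposited CPM scale none of the 7 was apart in this direction, *Loxl2* being at 70.8, 43.1 and 19.4 CPM with S4U against 50.1 and 43.5 without, and *Loxl3* at 14.2, 12.3 and 4.86 against 10.6 and 6.92. The sum of the fibroblast markers was also higher with S4U, at 29794 to 32873 CPM in the labeled and 22944 to 26785 CPM in the unlabeled libraries. Most of that sum came from the collagens *Col1a1* and *Col1a2*. *Col1a1* was at 13293, 12755 and 13058 CPM with S4U and 8784 and 9659 CPM without. *Col1a2* was at 9299, 11117 and 12728 CPM with S4U and 6809 and 9556 CPM without. The other fibroblast markers together were lower in each labeled library than in either unlabeled one. Of these, *Ddr2*, the lowest, was at 277, 332 and 245 CPM with S4U and 382 and 453 CPM without. The part of these markers in the differences was not tested. When both libraries numbered 1 were left out, a choice made after the data were seen, the log2 fold change of *Loxl3* was 0.94. That fit set 2 libraries against 1, and the lone unlabeled library is assumed to vary like the labeled ones.

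**Figure D5:**
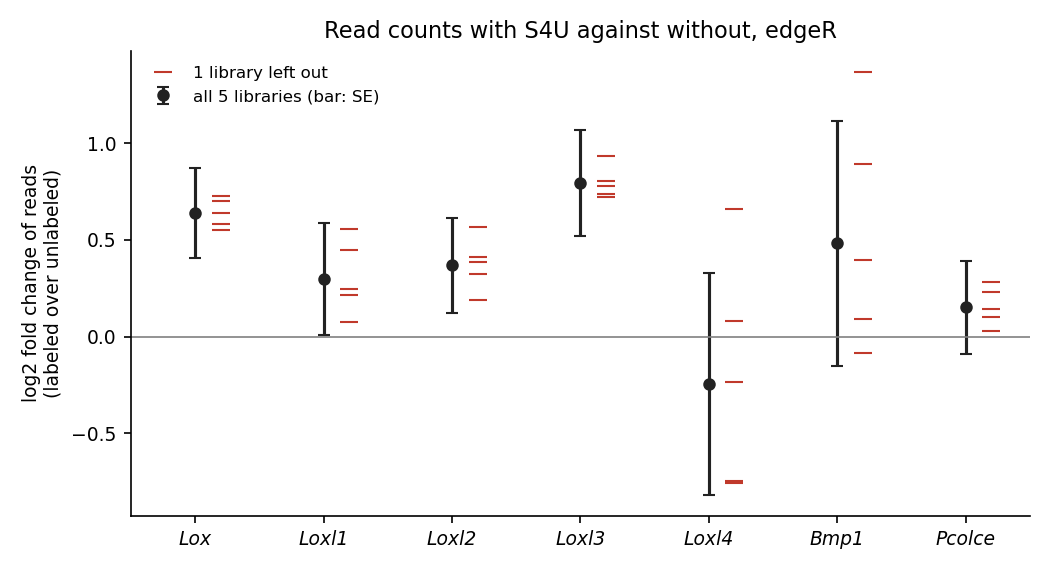
Log2 fold change of reads, labeled over unlabeled, from edgeR's fit to 5 libraries with its SE in black, and the values with 1 library left out as red dashes. *Lox* and *Loxl3* stay between 0.55 and 0.93, whereas *Loxl4* runs from -0.75 to 0.66 and *Bmp1* from -0.082 to 1.37.

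Of the 30 list genes, 24 had enough reads for the test and edgeR called none after adjustment. At an unadjusted p below 0.05, *Thbs1*, *Pcolce2* and *Col1a1* had positive log2 fold changes of 1.64, 0.77 and 0.57, and *Plod2* and *Eln* negative ones of -0.70 and -0.59. The median over the 24 was 0.27 and 17 were above 0. Of the list, DESeq2 called *Thbs1*, which encodes thrombospondin-1, a matrix protein that binds collagen, with an adjusted p of 0.000416. Its levels were 1700, 1674 and 2063 CPM relative to counted reads with S4U and 657 and 576 CPM without.

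Genes with a pattern most like that of each member were sought over 8 log2 values, the 5 levels and the 3 labeled T>C rates, among 2102 other deeply covered genes. *Lox* was nearest to the basement membrane collagen *Col4a1*, at a Euclidean distance of 0.68, with *Actb* next at 1.30. *Loxl1* was nearest to *Cxcl5* (0.51) and *Tubb5* (0.55), *Loxl2* to *Ybx1* (0.61) and *Tmem50a* (0.62), *Loxl3* to *Ier3* (0.42) and *Socs5* (0.60), and *Pcolce* to *Fkbp9* (0.58) and *Atp6ap1* (0.89). *Fkbp9* had a labeled T>C rate of 0.0106 and *Atp6ap1* one of 0.0122. The values share their libraries and depth, and *Loxl4* and *Bmp1* were too shallow to enter.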

How the data were processed

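Reads of 3′ end libraries were trimmed of their UMI with UMI-tools, mapped to mm39 with SLAM-DUNK (0.4.3 per the file headers) and deduplicated by the authors, who deposited for each 3′ UTR interval and library the read count, the count of reads with a T>C conversion, the counts of covered T positions and of conversions, the conversion rate as a fraction, and CPM. The origin of the interval set is not given in the sources used here. bcl2fastq, FastQC and MultiQC are named in the submitters' processing notes.

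Repeated rows were used once. Samples were grouped by their labels. Of 40428 intervals, 40380 lie on chromosomes of the reference used, and the T content of all 40380 matched GRCm39, and coordinates count from 1. T>C rates were compared with a two-sided likelihood-ratio test of beta-binomial models (1 overdispersion for both groups) wherever all 5 libraries covered 1 T or more, and reads on 1 interval per gene with edgeR's quasi-likelihood test (TMM, filterByExpr, Benjamini-Hochberg). Pairs of genes were compared with exact permutation tests, unpaired although both genes share their libraries. The members, the list of 30 genes and the named genes (the members, 9 list genes, list genes called by edgeR, the 3 highest and 3 lowest list rates, and the 2 nearest genes of each member) were chosen with earlier results of these data known. *Thbs1*'s DESeq2 call and the list genes with an unadjusted p below 0.05 were named after their values were seen. The tests were tried on simulated data. Alternatives were DESeq2, RLE factors, no filter, summed intervals, a replicate block, limma on log odds (pseudocount 0.5), other thresholds and scales, and each library left out. Where no conversion was seen, the limit is 3 conversions of the covered T, counting error only. Between 506045 and 1843033 reads per library set the precision.

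Scripts ran in Python 3.11.15 (matplotlib 3.10.9, pandas 2.3.3, scipy 1.17.1, numpy 2.4.6, numba 0.67.0) and in R 4.3.3 with DESeq2 1.42.0, edgeR 4.0.16 and limma 3.58.1.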

Additional observations from a re-analysis of the deposited data

How the results depend on the processing

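All 7 genes kept a raised T>C rate under each alternative that tested them, and the 5 with at least 1000 covered T positions did so at that threshold. Over all intervals, 3154 of 3156 were raised at that threshold and 10641 of 11179 on 1 interval per gene, fewer because fewer were tested. With the unlabeled rate subtracted, pooled conversions or the other interval of *Bmp1*, the labeled T>C rates moved by less than 1 SD in all 15 cases. With 1 labeled library left out, a change that cannot reach 1 SD for 3 values, the mean rate of *Bmp1* ran from 0.0156 to 0.0258 and that of *Loxl4* from 0.0382 to 0.0475. Transcript levels in the labeled libraries depend on the scale. Relative to counted reads, and then per kilobase of interval, the deposited CPM of 366 became 4265 and 1347 for *Lox*, 46.8 became 588 and 495 for *Loxl1*, 44.5 became 536 and 197 for *Loxl2*, 10.5 became 131 and 77.4 for *Loxl3*, 1.72 became 18.6 and 6.08 for *Loxl4*, 11.3 became 157 and 279 for *Bmp1*, and 34.6 became 421 and 7514 for *Pcolce*, whose 56-base interval sets its last value. The deposited CPM fell to 238 for *Lox* and to 0.734 for *Loxl4* without labeled replicate 1, and to 7.14 for *Bmp1* without labeled replicate 2. The 2 intervals of *Bmp1* summed to 22.5, as their reads are the same. Of read counts, edgeR called 0 of the 7 genes and 0 of all genes, also with each library left out, RLE factors, no filter or summed intervals. DESeq2 called 12 genes. With the replicate number as a block, which leaves 1 residual degree of freedom, edgeR called 1146 of 9807 genes, 528 higher and 618 lower. Among them were 2 of the 7, *Lox* (log2 fold change 0.62, adjusted p = 0.000952) and *Loxl3* (0.68, 0.00376). Of the 24 list genes tested, 6 were among the 1146 of 9807, *Thbs1*, *Pcolce2*, *Efemp2*, *Plod2*, *Eln* and *Col1a1*. The labels do not say that a number marks a shared preparation, and only 2 numbers occur in both groups. Deviations from the group means correlated at 0.786 for replicates 1 and 0.641 for replicates 2 across genes, and labeled replicate 3, which has no partner, at 0.484 with unlabeled replicate 2. The deviations of the unlabeled libraries mirror each other (correlation -1), and those of the labeled ones balance out for each gene. The correlations are thus not separate results, and cannot decide whether a number marks a pair. Without both libraries numbered 1, added after the data were seen, edgeR called 372 of 9620 genes, among them 1 of the 7, *Loxl3* (log2 fold change 0.94). That fit holds 1 unlabeled library, which is assumed to vary like the labeled ones, so its calls carry little weight. The log2 fold change of reads of *Loxl4* turned from -0.24 to 0.081 without labeled replicate 2, to 0.66 without unlabeled replicate 1 and to 0.11 without both libraries numbered 1, and that of *Bmp1* from 0.48 to -0.082 without unlabeled replicate 1, and the cause was not tested. With 1 library left out, they ran from -0.75 to 0.66 and from -0.082 to 1.37. Depth limits the precision of *Loxl4*, with 9 to 63 reads a library.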
